A study of Mus musculus with 2 samples.

Results

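Cadherins and the regulators of epithelial-mesenchymal transition (EMT) were read on a pair of 1-colour microarrays, 1 array of EpiSC and 1 of ELA-EpiSC. The 10 genes are Cdh1, Cdh2, Epcam, Esrp1, Cldn6, Snai1, Snai2, Zeb1, Zeb2 and Twist1. They were found by the gene name printed in the scanner files, among spots that are not controls, and occupy 14 probes and 23 spots of an array with 55681 probes for mouse transcripts. All 10 passed the minimum level used here, as did 16649 of the 25851 genes detected on at least 1 array.

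The starting cells of both cultures were E14Tg2A, an embryonic stem (ES) line from mouse strain 129/Ola, normally grown in serum with the cytokine LIF. EpiSC (epiblast stem cells) were made by placing ES cells in chemically defined medium with FGF2 (12 ng/mL) and Activin A (20 ng/mL). ELA-EpiSC received the same doses of both factors after the ES cells had first formed epiblast-like aggregates (ELA), floating clusters that arise when serum and LIF are withdrawn. Each array was hybridized with RNA pooled from 3 experiments, so neither culture has a replicate array, no p-value can be given, and culture variation is averaged inside each pool. The question behind the pair is how alike the derivations by either route are. For EpiSC, an Argonaute immunoprecipitate is named as the source, against the sample's title, description and molecule entry. The title was followed here.

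In an epithelium, E-cadherin (Cdh1) holds neighbouring cells together at adherens junctions, and its tail is anchored to actin through catenins. During EMT, transcription factors of the SNAIL, ZEB and TWIST families repress Cdh1 and other epithelial genes by binding E-boxes in their promoters, and N-cadherin (Cdh2) often takes the place of E-cadherin. In the embryo the epiblast is an epithelium that expresses Cdh1, and its cells pass through EMT as they enter the primitive streak. Epcam codes for an epithelial adhesion protein, Cldn6 for a tight junction claudin of early embryonic epithelia, and Esrp1 for an RNA-binding protein that imposes epithelial splicing.

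Cdh2 and 4 of the 5 EMT transcription factors (Snai1, Snai2, Zeb1 and Zeb2) were higher in ELA-EpiSC by more than 1 on the log2 scale, which is 2-fold. The fifth factor, Twist1, was higher by 0.43. Cdh1, Epcam, Esrp1 and Cldn6, the 4 epithelial genes, all lay within 0.5 of equal signal as reported. Under other scalings Cldn6 reached -0.61 and Esrp1 0.72. Of the 16649 genes, 4.54% were past 1 and higher in ELA-EpiSC, and 4.46% were past 1 and higher in EpiSC. Among the 10 genes the counts were 5 and 0. Snai2, Zeb1 and Zeb2 reached the minimum only through the ELA-EpiSC array. The genes were also chosen with earlier results of these data known, so these counts are a description.

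What the arrays read can be seen from the sequences that bear on the epithelial genes. The only probe of Epcam is a 60-base oligonucleotide on chromosome 17 whose ends lie 829 bases apart on the genome (chr17:88048972-88049800, mm9, plus strand), so it bridges an intron and reads spliced RNA. It is shown because the Epcam comparison rests on this 1 probe.
Epcam probe: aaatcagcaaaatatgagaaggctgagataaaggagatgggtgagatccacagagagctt

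The promoters of the epithelial genes are where the EMT factors are known to act. The letters CAGGTG and their reverse complement CACCTG, an E-box that SNAIL and ZEB proteins bind, were searched on both strands in RefSeq promoter windows (GRCm38.p6) of 250 bases before and 50 after a start site. Windows were found for 5 of the 10 genes, namely Epcam, Cldn6, Snai1, Zeb2 and Twist1. Of all 32851 windows, 20.2% held at least 1 such E-box and 2.88% held at least 2. The window of Epcam held 2, beginning 187 and 19 bases before the start site, and that of Cldn6 held 2, beginning 93 bases before and 40 bases after it. Snai1 had 1 E-box, 126 bases before its start site, and the windows of Zeb2 and Twist1 held none of these letters. The stretches of 250 bases before the start sites of Epcam (chr17:87635729-87635978, plus strand) and Cldn6 (chr17:23679115-23679364, plus strand) are printed, with the E-boxes in capitals, because these are the epithelial genes with the largest differences toward EpiSC (toward ELA-EpiSC with spike-in scaling).
Epcam promoter: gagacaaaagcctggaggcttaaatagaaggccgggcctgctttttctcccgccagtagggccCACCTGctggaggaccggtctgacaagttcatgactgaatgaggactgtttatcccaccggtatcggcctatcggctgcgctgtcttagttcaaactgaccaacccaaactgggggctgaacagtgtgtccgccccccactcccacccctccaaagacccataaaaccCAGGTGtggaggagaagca
Cldn6 promoter: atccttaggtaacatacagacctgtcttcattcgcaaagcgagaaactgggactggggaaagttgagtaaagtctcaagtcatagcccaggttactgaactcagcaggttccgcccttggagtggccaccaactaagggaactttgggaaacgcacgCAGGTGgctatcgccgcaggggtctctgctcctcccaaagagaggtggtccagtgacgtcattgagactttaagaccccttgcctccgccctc
A match of letters is a description of the sequence. Binding was not measured here.

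The arrays were alike in quality. Of the 55647 probes left after outlier removal, 65.9% were well above background with EpiSC RNA and 65.0% with ELA-EpiSC RNA, and the median spot signal was 71.7 and 79.1 intensity units over a local background of 26 and 25. No spot was saturated (0), and 0 spots of the 10 genes were marked as outliers. Levels are given as log2 of background-corrected, quantile-normalized signal, and differences as log2 ELA-EpiSC minus EpiSC. The number of arrays limits the precision, and the only measured error is that of repeated spots: over 312 probes printed 10 times, the difference between the arrays had an SD of 0.10 from spot to spot. It was 0.11 for the 104 of these with a log2 level of 6.5 to 9.5 in EpiSC. Feature Extraction, the scanner software, estimates a larger error from its own model, 0.20 to 0.21 for the difference at the brightest probe of each of the 10 genes. Spike-in RNA gives another scale. Of 10 spike-in probes, 8 were detected, with differences from -0.86 to -0.26 and a mean of -0.54. Taking out this mean adds 0.54 to every difference, although the probes did not share a common shift. Scaling to the median of all probes instead moves the median gene by 0.15.

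**Figure D1:**
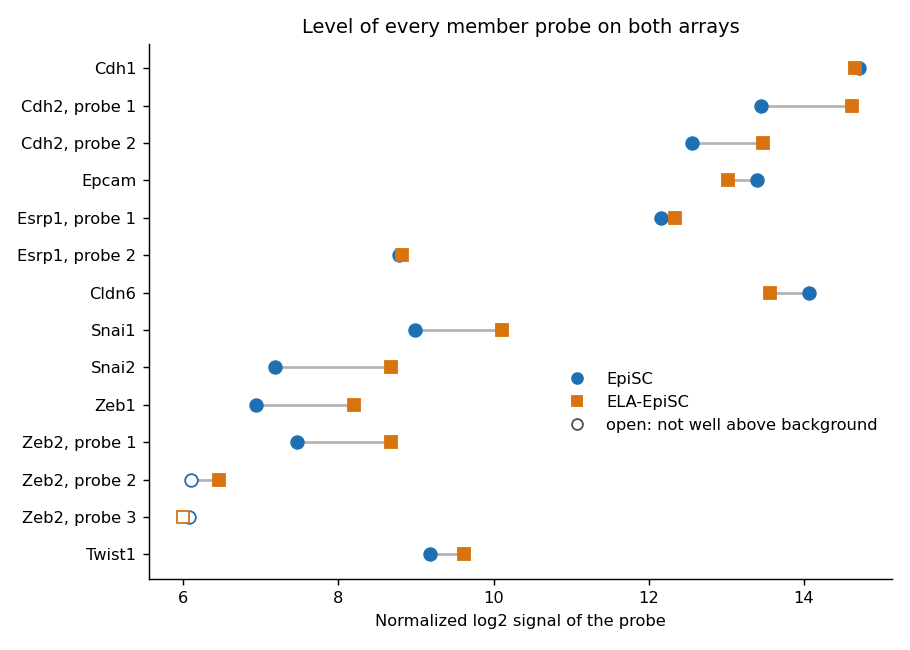
Normalized log2 signal (x axis) of each of the 14 probes of the 10 genes (y axis) on the EpiSC array (blue circles) and the ELA-EpiSC array (orange squares), with 1 array per group and therefore no error bars. Open symbols were not well above background. Only the 2 symbols of a row can be compared, since probes differ in brightness; the orange square lies clearly to the right for Cdh2, Snai1, Snai2, Zeb1 and the first probe of Zeb2.

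E-cadherin was measured most closely, because its probe (chromosome 8, 109193812 to 109193871, mm9) was printed 10 times on each array. With EpiSC RNA the mean pixel signal of the spots ran from 20382 to 30678 with a median of 26128, and with ELA-EpiSC RNA from 20451 to 31763 with a median of 27530. The ranges overlap almost wholly, and bright spots on one array sat at the same places as bright spots on the other. After normalization the EpiSC level of Cdh1 was 14.70 ± 0.18 (SD, n = 10 spots) and the ELA-EpiSC level 14.65 ± 0.24 (SD, n = 10 spots). The difference taken spot by spot was -0.05 ± 0.08 (SD, n = 10 spot pairs), with 7 spots higher in EpiSC and 3 higher in ELA-EpiSC. The spots spanned 0, from -0.20 to 0.04, and the mean was smaller than the error of 0.20 from the scanner's model. Only the spike-in scaling turned it positive, to 0.48. The spots share 1 RNA pool per array and speak for the measurement, not for the cultures.

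N-cadherin has probes at a pair of neighbouring positions on the minus strand of chromosome 18 (16747559 to 16747618 and 16747386 to 16747445, mm9), each printed once. The brighter probe gave a mean pixel signal of 10320 for EpiSC against 25719 for ELA-EpiSC, and the other gave 5475 and 12256. Both were more than 2-fold brighter in raw signal on the ELA-EpiSC array. On the normalized scale the brighter probe went from 13.45 to 14.61, which is 1.16 or 2.24-fold, and the other from 12.56 to 13.47, which is 0.91. The first is past 1 and the second just under it. The difference of the brighter probe was 11.4 times the spot SD, and 571 of the 16649 genes had a larger one. With processed signal scaled to the 75th percentile it was 0.90.

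The balance between the cadherins can be stated without regard to scaling, since a constant added to every gene cancels. The log2 ratio of Cdh2 to Cdh1 was higher in ELA-EpiSC by 1.21, a 2.32-fold shift of the ratio. With the mean of both Cdh2 probes in place of the brighter one it was 1.09, and under the other alternatives it stayed between 1.21 and 1.29. Of its parts, the difference of Cdh2 was 1.16 and that of Cdh1 -0.05. Which cadherin was the more abundant cannot be read from these values, because signals of different probes are not on a common scale.

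**Figure D2:**
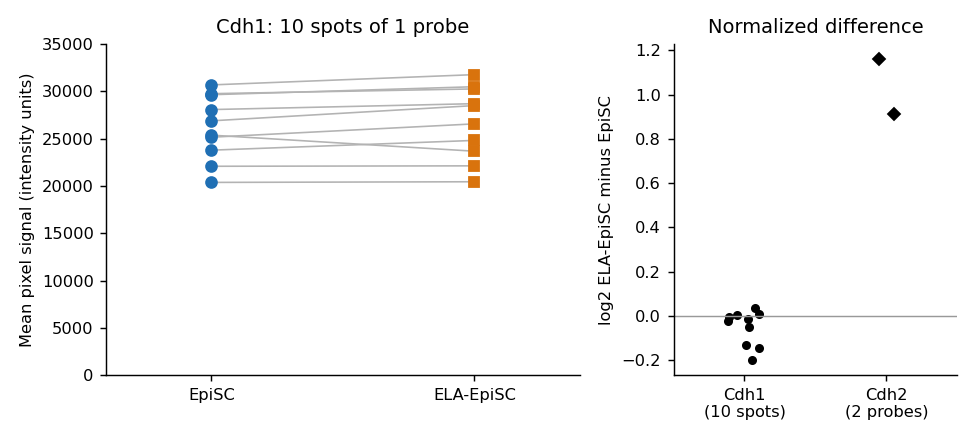
Left, mean pixel signal (intensity units, axis from 0) of the 10 Cdh1 spots on the EpiSC (blue circles) and ELA-EpiSC (orange squares) arrays, lines joining the same array position. Right, normalized log2 difference of each of the 10 Cdh1 spots (circles) and of the 2 Cdh2 probes (diamonds); the Cdh1 spots lie between -0.20 and 0.04 and the Cdh2 probes at 0.91 and 1.16.

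As reported, Epcam and Cldn6 were higher in EpiSC by under 0.5, beyond the error of 0.20 from the scanner's model. Over the 13 settings Epcam ran from -0.42 to 0.16 and Cldn6 from -0.61 to 0.04, both above 0 only with spike-in scaling. With median scaling Epcam, at -0.195, was no longer beyond that error. Epcam gave a pixel signal of 9860 in EpiSC and 8970 in ELA-EpiSC, and stood at 13.39 and 13.01 after normalization. Its difference of -0.38 is 1.30-fold toward EpiSC and 3.69 times the spot SD, and it became 0.16 with spike-in scaling. Cldn6 (chromosome 17, 23819027 to 23819086, mm9) gave 15991 and 13010 units, and 14.06 and 13.56 after normalization. It was higher in EpiSC by 1.41-fold, a difference of -0.49 that was 4.85 times the spot SD and became 0.04 with spike-in scaling. In the order of differences, 3187 genes lay lower than Epcam and 2309 lower than Cldn6, out of 16649.

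Esrp1 has probes at separate places of the gene on chromosome 4 (11260208 to 11260267 and 11284629 to 11284688, mm9, minus strand). The brighter probe gave 4113 units in EpiSC and 5693 in ELA-EpiSC, and the other 369 and 463. Both were brighter in ELA-EpiSC in raw signal, by less than 1.5-fold. Normalized differences were 0.18 and 0.04, of which the first exceeded the spot SD and neither exceeded the error of the scanner's model. The first became 0.72 with spike-in scaling and 0.41 with median scaling, both past that error. Esrp2, the paralog of Esrp1 with the same splicing function, differed by -0.07.

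The SNAIL family comprises zinc finger repressors that bind the E-boxes of Cdh1. Snai1 (chromosome 2, 167368073 to 167368132, mm9) gave a pixel signal of 431 in EpiSC and 1196 in ELA-EpiSC, and 8.98 and 10.11 on the normalized scale. The difference was 1.13, or 2.18-fold, and 1.26 with processed signal scaled to the 75th percentile. Snai2 (Slug; chromosome 16, 14709361 to 14709420) gave 104 and 410 units over local backgrounds of 25 and 21, and stood at 7.19 and 8.68 after normalization. Its difference of 1.49 was the largest of the 10 genes, 2.81-fold, with 336 of the 16649 genes having a larger one. With an offset of 0 in place of 50 it was 1.91, and with processed signal scaled to the 75th percentile 2.16. Snai1 and Snai2 stayed past 1 in all 13 settings. Snai3, a further family member named after its values were seen, lay under the minimum level at 7.13 in EpiSC and 7.74 in ELA-EpiSC.

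The ZEB factors, which carry zinc finger clusters at both ends and are held down by the miR-200 family in epithelia, showed the same direction. Zeb1 (chromosome 18, 5774613 to 5774672, mm9) gave a pixel signal of 84.9 in EpiSC and 287 in ELA-EpiSC, over backgrounds of 26 and 25 units. After normalization it stood at 6.94 and 8.20, a difference of 1.27 or 2.40-fold, and 1.94 with processed signal scaled to the 75th percentile. Its mean level of 7.57 was only just above the minimum of 7.5, which it met through the ELA-EpiSC array. With an offset of 0 or 16, or with no background correction, Zeb1 lay below the minimum, and the count of 5 genes became 4, its difference then being 1.75, 1.56 and 1.54.

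Zeb2 has 3 probes on the minus strand of chromosome 2, and they were unequal. The brightest (44842774 to 44842833, mm9) gave 136 units in EpiSC and 413 in ELA-EpiSC, and 7.47 and 8.67 after normalization, a difference of 1.21 or 2.31-fold. The second (44840038 to 44840097) gave 37.3 and 61.7 units, was well above background only on the ELA-EpiSC array, and was at least 1.29-fold higher there. The third (44965914 to 44965973), which is assigned to an Ensembl transcript, gave only 38.6 and 30.8 units, on neither array well above background. With the mean of the detected probes the difference of Zeb2 was 0.79, no longer past 1. That Snai2, Zeb1 and the brightest Zeb2 probe lie below 7.5 in EpiSC means that these genes reached the minimum only through the array on which they were higher, and a count over genes that passed in this way is a description.

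Twist1, a basic helix-loop-helix factor of mesoderm and neural crest, differed least among the factors. Its probe (chromosome 12, 34644411 to 34644470, mm9) gave 498 units in EpiSC and 839 in ELA-EpiSC, with 9.18 and 9.62 after normalization. The difference of 0.43, or 1.35-fold, was 4.27 times the spot SD, and it stayed above 0 and below 1 in all 13 settings. Twist2, its close paralog and no member of the 10, stood at 6.37 and 9.30, a difference of 2.92.

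**Figure D3:**
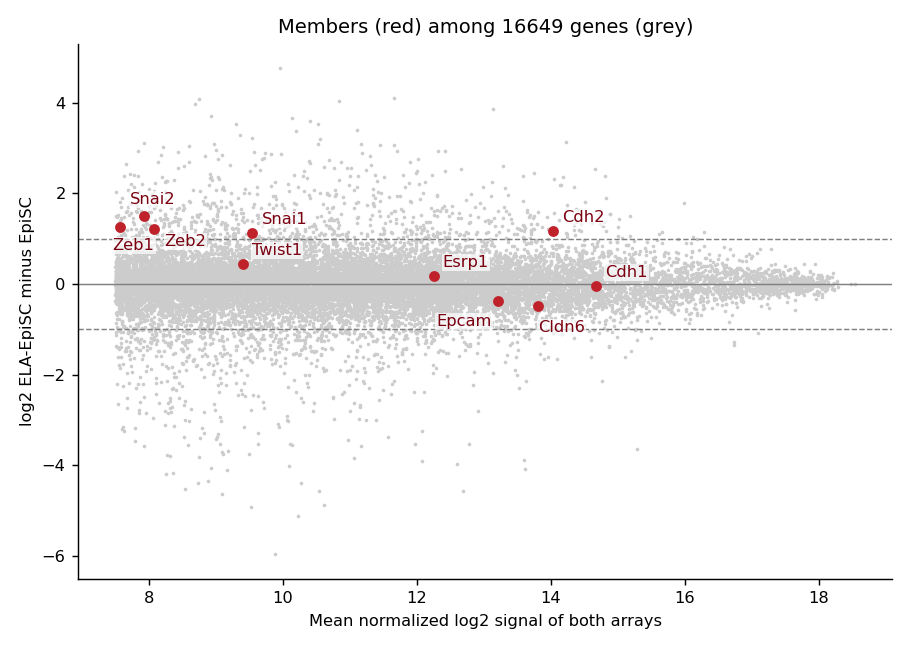
Difference between the arrays (y axis, log2 ELA-EpiSC minus EpiSC) against the mean log2 level (x axis) for 16649 genes in grey and the 10 genes in red, 1 array per group; dashed lines mark a difference of 1 either way. Snai1, Snai2, Zeb1, Zeb2 and Cdh2 lie above the upper line, and the 4 epithelial genes and Twist1 lie between the lines.

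Other genes of cell adhesion and EMT were then read from lists. Of 24 cadherin genes other than Cdh1 and Cdh2, 10 passed the minimum and 6 were well above background on neither array. The median of the 10 was 0.09, beside 0.00 over all genes. Past 1 and higher in ELA-EpiSC were 2 of 10, the type II cadherin Cdh10 (8.06 and 9.78, a difference of 1.72) and Cdh22 (8.22 and 9.54, a difference of 1.32), and 0 of 10 were past 1 in EpiSC. Cdh3, the P-cadherin gene beside Cdh1 on chromosome 8, differed by 0.54.

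Catenins and plaque proteins, which link cadherins to the cytoskeleton, were listed together with the nectins. This list had 15 genes above the minimum, with a median of 0.40 and 12 of 15 higher in ELA-EpiSC. Only Vcl (vinculin, a force-bearing link to actin) was past 1, with 12.68 in EpiSC and 14.12 in ELA-EpiSC and a range of 0.87 to 1.44 over its probes. The partners of the cadherin tail, named after their values were seen, were Ctnnb1 (beta-catenin), which differed by -0.05, Ctnnd1 (p120) by 0.43 (0.16 at another probe) and Ctnna1 (alpha-catenin) by 0.73. The median of the list was above 0 in every setting.

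Tight junction genes other than Cldn6 went both ways around a median of -0.10 over 14 genes. Claudin gene Cldn4 (1.39, with 0.71 at another probe) and the scaffold gene Tjp1 (1.04) were past 1 toward ELA-EpiSC, and the scaffold gene Tjp3 (-1.18) toward EpiSC. Of 12 polarity genes, with a median of -0.19, Prkci (1.20), an atypical protein kinase C, and Crb2 (-1.28), a Crumbs protein, were past 1 in opposite directions. Epithelial surface and trafficking genes had 11 above the minimum and 0 past 1, with 7 of 11 higher in EpiSC and a median of -0.49. Epithelial transcription and splicing factors had a median of -0.22 over 10 genes. Among these Grhl3 (-1.06) and Ehf (-1.06, with -0.47 at another probe) were past 1 toward EpiSC and Klf5 (2.50) toward ELA-EpiSC. Ehf, at 7.09 in ELA-EpiSC, reached the minimum only through the EpiSC array. The medians of these 4 lists were below 0 as reported and above 0 with spike-in scaling. Median scaling also brought those of the tight junction genes (0.10) and polarity genes (0.04) above 0.

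Of the lists, the mesenchymal markers had the largest share past 1 toward ELA-EpiSC. Past 1 were 11 of 21 in ELA-EpiSC, beside 4.54% of all genes, and 1 of 21 in EpiSC, beside 4.46%. The median was 1.09, with 19 of 21 higher in ELA-EpiSC, and between 0.91 and 1.62 over the settings. Vim (vimentin, an intermediate filament protein) had levels of 13.39 and 15.91, which differ by 2.53. Tagln, an actin-binding protein, stood at 13.87 and 15.76, a difference of 1.89. Col1a1, a fibrillar collagen chain, differed by 3.72 and Itgb3, an integrin chain, by 2.60, the latter by 0.18 at another probe. Fstl1 (-1.18) was past 1 toward EpiSC. In EpiSC, Col1a1 stood at 7.07, Itgb3 at 7.23 and Fbn1, named after its values were seen, at 7.03. These genes, all among the 11, reached the minimum only through the ELA-EpiSC array. The list was also drawn up with results of these data known, and the count of 11 of 21 is a description.

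Among 13 other EMT transcription factors above the minimum, 10 were higher in ELA-EpiSC, with a median of 0.14. Past 1 toward ELA-EpiSC were Twist2 (2.92, above the minimum only through that array) and Tead1 (1.52, with 0.85 at another probe). All 22 genes of SNAIL and ZEB corepressors and turnover passed the minimum, with a median of 0.10. Past 1 were Lats2 (1.53, with 0.74 at another probe), a kinase of the Hippo pathway, Ctbp2 (1.25), a corepressor that ZEB proteins recruit, and Ajuba (1.22), a LIM protein that SNAIL recruits, all 3 toward ELA-EpiSC. The list of TGF-beta and HGF pathways, which induce EMT in many tissues, had 10 genes above the minimum. Hgf and Met, named after their values were seen, were not among these, so only TGF-beta ligand, receptor and SMAD genes were read. Their median was -0.11 (0.43 with spike-in scaling and 0.11 with median scaling). Tgfb3 (1.35) was past 1 and, at 7.28 in EpiSC, reached the minimum only through the ELA-EpiSC array.

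**Figure D4:**
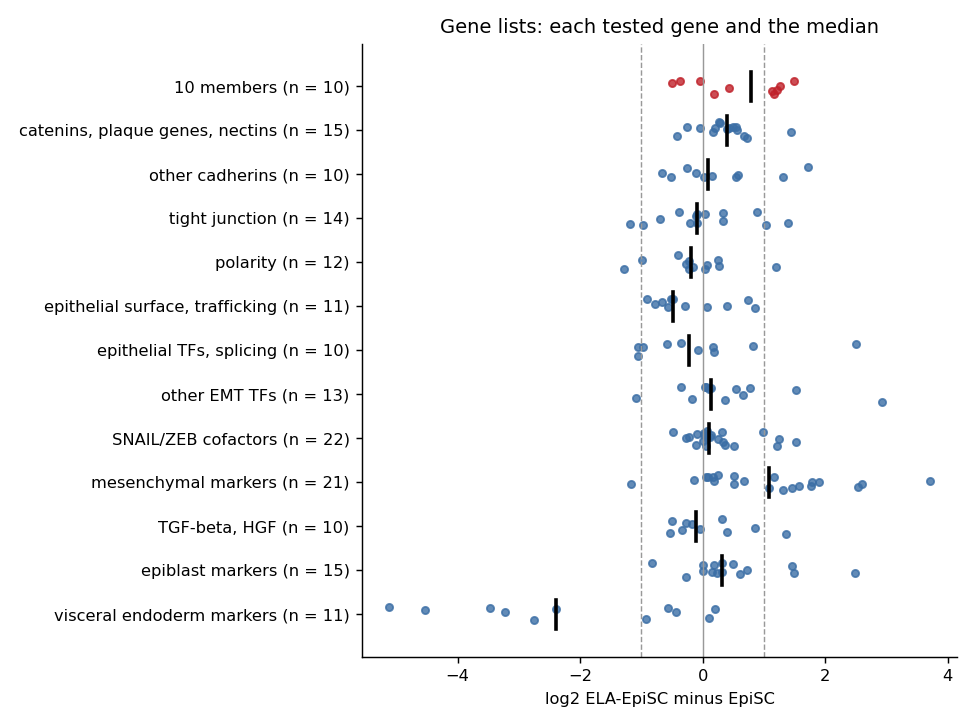
Log2 difference ELA-EpiSC minus EpiSC (x axis) of every gene above the minimum in the 10 genes (red) and in 12 lists (blue); black bars are medians, dashed lines mark 1 either way, and vertical jitter carries no meaning. Mesenchymal markers centre at 1.09, the 4 epithelial lists below 0 (above 0 with spike-in scaling, and for tight junction and polarity genes also with median scaling), and visceral endoderm markers at -2.39.

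Epiblast markers were detected in both cultures. All 15 were well above background on both arrays, each gene read at its brightest detected probe. Over all probes, without such a choice, the share was 65.9% with EpiSC RNA and 65.0% with ELA-EpiSC RNA. Shares of genes and of probes are unlike units. No ES cell array was compared, so detection alone does not tell these cultures from ES cells. Pou5f1 differed by 0.19, Fgf5 by 0.16, Nanog by 0.32 (with -0.31 at another probe) and Sox2 by -0.27. T (brachyury), a gene of the primitive streak where epiblast cells undergo EMT, differed by 2.48, Nodal by 1.49 and Pou3f1 by 1.46.

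Markers of other cell types differed between the arrays as well. Visceral endoderm, an epithelium that also expresses Cdh1 and Epcam, was represented by 18 markers, of which 18 were detected in EpiSC and 14 in ELA-EpiSC. Their summed linear signal was 75872 in EpiSC and 34971 in ELA-EpiSC. Past 1 toward EpiSC were 6 of 11, beside 4.46% of all genes, among them Hnf4a (-5.12), Ambp (-4.53) and Rbp4 (-3.23). Ttr was detected only in EpiSC, at least 10.7-fold higher. Ambp and Ttr, at 6.27 and 6.06 in ELA-EpiSC, reached the minimum of 7.5 only through the EpiSC array. So did Amn (7.25 in ELA-EpiSC), which was named after its values were seen, and the count is a description. Foxa2 (-0.44), Sox17 (-0.93) and Gata6 (-0.57), named after their values were seen, were detected on both arrays. Foxa2, at 14.67 and 14.22, was the largest part of both sums, and such sums weigh probes by their brightness. The part of these cells in the differences of Epcam, Cldn6 and the EMT factors was not tested, and in bulk RNA fewer cells of a type and less RNA per cell cannot be told apart.

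Trophoblast markers were detected for 9 of 10 genes on each array, with summed signals of 70054 in EpiSC and 38959 in ELA-EpiSC. Most of both sums was Gcm1, named after its values were seen, with levels of 15.67 and 14.97 and differences from -0.70 to 0.83 over its 4 detected probes. Ascl2 (-3.00), Gata3 (-2.56) and Elf5 (-1.48) were past 1 toward EpiSC and Tfap2c (1.16) toward ELA-EpiSC, while Cdx2 lay under the minimum. Elf5, at 6.92 in ELA-EpiSC, reached the minimum only through the EpiSC array. Mesoderm and endothelial markers had 4 of 14 above the minimum, with Gata1 (-3.71) and Mesp1 (-1.66) past 1 toward EpiSC. Both genes, at 7.23 and 6.89 in ELA-EpiSC, reached the minimum only through the EpiSC array. The summed signals were 10300 in EpiSC and 6290 in ELA-EpiSC. Kdr, named after its values were seen, made up most of both sums, at 12.72 and 12.29. Its 2 detected probes differed by -0.43 and 1.49. Of the neural and neural crest markers, 6 of 14 passed the minimum and 0 were past 1, with summed signals of 6084 and 8182. Pax6 and Olig2, named with Cdx2 after their values were seen, were well above background on neither array. Whether any of these moved the differences of the 10 genes was not tested.

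**Figure D5:**
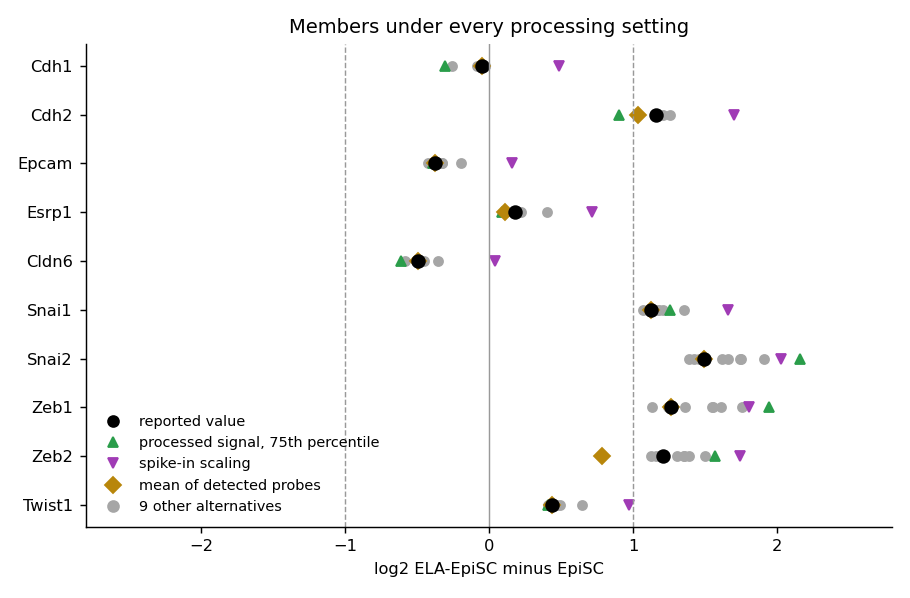
Log2 difference ELA-EpiSC minus EpiSC (x axis) of each of the 10 genes (y axis) as reported (black) and under 12 alternatives, 3 of which have their own symbols; the dashed lines mark 1 either way. Snai1, Snai2 and Zeb1 lie past 1 in all 13 settings, Cdh2 and Zeb2 in 12, and Cdh1, Epcam and Cldn6 lie above 0 only with spike-in scaling.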

How the data were processed

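RNA pooled from 3 experiments per group was labelled with Cy3 (50 ng per the labels) and hybridized to Agilent mouse expression arrays, and the groups were taken from the sample titles. The deposited scanner files hold spot intensity, extracted with Feature Extraction 10.7.3.1 per the file headers (the submitters' processing notes name 9.1), with probe positions on mm9. Their quality flags (0 or 1) mark spots well above background and outliers. The authors also deposited log2 values, background-corrected and quantile normalized with limma, used here as an alternative.

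Mean spot signal and median local background were corrected by normexp (offset 50) in limma 3.58.1 under R 4.3.3. Control spots and outlier spots (158 and 117) were removed, arrays were quantile normalized, and spots of a probe were averaged. Detection of a probe required the well-above-background flag on a share of 0.5 or more of its spots. Each gene took its brightest probe detected on at least 1 array, and was counted past 1 (absolute log2 difference) if its mean level over both arrays reached 7.5. Differences of dim genes are made smaller by the offset, and a shift common to all genes is removed by quantile normalization. The pipeline was tested on simulated data.

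Named genes were the 10 genes, Cdh3, Esrp2, 5 epiblast markers and, per list, up to 4 genes past 1 in each direction; exceptions are stated, and some list genes are not reported here. The genes and lists were chosen with earlier results of these data known. Promoters are those of RefSeq, build GRCm38.p6.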

Additional observations from a re-analysis of the deposited data

How the results depend on the processing

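No paired analysis was possible because there was 1 array for each culture. The count of the 10 genes past 1 and higher in ELA-EpiSC was 5 as reported, 4 or 5 under 15 of 16 alternatives and 2 with a minimum of 9, which removes the dim Snai2, Zeb1 and Zeb2 by construction. It was 0 toward EpiSC in every setting. The shift of the Cdh2 to Cdh1 log2 ratio, 1.21 as reported, was 1.09 with the mean of detected probes, which takes in the second Cdh2 probe. Over all genes, 756 were past 1 toward ELA-EpiSC and 742 toward EpiSC. These became 2610 and 321 with spike-in scaling, which adds a constant, 1114 and 516 with median scaling, and 1846 and 1823 at 1.5-fold, while a minimum of 9 left 481 toward EpiSC. No gene of the 10 that was past 1 changed direction under the 12 alternatives (0 reversals). Cdh1, Epcam and Cldn6 turned positive with spike-in scaling only. The pixel signal of Zeb1 in EpiSC, 84.9 over a background of 26 units, limits how well its size is known.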
